A study of Mus musculus with 12 samples.

Results

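The cytochrome P450 genes of mouse colonic epithelium were followed in confluent monolayers at day 3, day 4 and day 5 and in colonic crypts, with 3 RNA-seq libraries in each of the 4 groups. Members were chosen by symbol alone, as every row of the count tables named Cyp, a number, small letters and a final number, which gave 92 of 23420 rows. Of the 92, 34 passed the filter on low counts and were tested, 34 had at least 1 count but stayed below the filter, and 24 had no count in any of the 12 libraries. Per the labels, all groups derive from wild-type mouse colon at an age of 6 to 10 weeks. Crypt cells were grown first on collagen and then replated on scaffolds with a gradient of cross-linking, and a whole monolayer was lysed for RNA. The labels give the transepithelial electrical resistance as 526 ± 56 ohm cm2 at day 3, 623 ± 15 ohm cm2 at day 4 and 407 ± 53 ohm cm2 at day 5, with the kind of error not named. Whether the libraries of a group came from separate mice or cultures is not stated there, so p-values measure the spread between these samples, which may be technical.

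P450 enzymes are haem proteins that insert an oxygen atom into lipid-soluble substrates. They take electrons from P450 oxidoreductase (Por) in the endoplasmic reticulum, or from ferredoxin in mitochondria. Families are written as a number and subfamilies as a letter after it. Members of the low-numbered families mostly oxidise drugs, toxins and fatty acids, several family 4 enzymes hydroxylate the end of fatty acid chains, and others act on bile acids, steroids, retinoic acid or vitamin D. The gut epithelium is one of the first tissues that meets swallowed compounds, and it expresses its own set of these enzymes.

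Levels are given in CPM, a gene's count relative to its library's total gene count after scaling by trimmed-mean (TMM) factors, with SD over n = 9 monolayer libraries, n = 3 libraries of a day or n = 3 crypt libraries. Changes are log2 fold changes with their standard error from edgeR's quasi-likelihood test, and a gene is called at a Benjamini-Hochberg adjusted p under 0.05 over 12863 genes. The change between monolayers and crypts is the mean of the 3 daily log2 changes. Depth was 5456913 to 14290393 gene counts in monolayers and 4518314 to 9939045 in crypts, and a floor of 3 counts corresponds to 0.215 to 0.605 CPM. Day 5 replicate 1 had the fewest rows with a count, 12293 against up to 15250 in another library. Reads falling in no gene were 38.7 to 42.8% in monolayers and 45.6 to 49% in crypts. The labels name no batch.

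Several members are near-identical copies, and the summary rows of the count tables set reads without a unique alignment apart from the gene rows, so such rows hold only the reads that tell the copies apart. In GENCODE M21 transcripts, 43.3% of the 50-base stretches of Cyp2c68 also occur in the transcript of another gene, as do 54.8% of those of Cyp2c69, 52.8% of Cyp2c67 and 72.1% of Cyp2c40. The shares are 40.5% for Cyp2d10, 37.2% for Cyp2d11, 29% for Cyp2d9, 26.5% for Cyp4f16, 24% for Cyp2c66 and 20.6% for Cyp2c65. They are 1.13% for Cyp2c55 and 0 for Cyp1b1, Cyp26b1 and Cyp3a13, whose rows are therefore little touched. Coding sequences of Cyp2c67 and Cyp2c69 were 97.7% identical, those of Cyp2c67 and Cyp2c68 97.2% and those of Cyp2c65 and Cyp2c66 96.3%. The first 90 coding bases of the Cyp2c68 group on chromosome 19 show how few bases separate these rows; capitals mark the 4 positions at which the 3 genes differ.
Cyp2c68: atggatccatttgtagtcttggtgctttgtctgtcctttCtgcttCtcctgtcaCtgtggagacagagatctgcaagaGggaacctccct
Cyp2c69: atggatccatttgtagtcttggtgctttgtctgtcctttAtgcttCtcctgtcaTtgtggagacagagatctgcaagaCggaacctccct
Cyp2c67: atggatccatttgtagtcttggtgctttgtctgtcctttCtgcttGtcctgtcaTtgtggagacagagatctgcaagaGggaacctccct
Over the same window Cyp2c55, Cyp2c65 and Cyp2c66, also on chromosome 19, differ at 27 positions, nearly all of which set Cyp2c55 apart.
Cyp2c55: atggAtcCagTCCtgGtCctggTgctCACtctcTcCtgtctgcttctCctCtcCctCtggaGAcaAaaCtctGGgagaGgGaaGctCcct
Cyp2c65: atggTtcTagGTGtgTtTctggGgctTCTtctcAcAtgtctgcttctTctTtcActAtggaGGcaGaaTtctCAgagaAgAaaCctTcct
Cyp2c66: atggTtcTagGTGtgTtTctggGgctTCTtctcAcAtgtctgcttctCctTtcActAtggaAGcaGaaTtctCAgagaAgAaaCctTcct
In the Cyp2d subfamily on chromosome 15, 4 of the members described below differ at 17 positions of that window, and the highest coding identity, 94.7%, was between Cyp2d10 and Cyp2d11.
Cyp2d9: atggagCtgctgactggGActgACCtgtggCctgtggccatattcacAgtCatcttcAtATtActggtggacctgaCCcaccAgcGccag
Cyp2d10: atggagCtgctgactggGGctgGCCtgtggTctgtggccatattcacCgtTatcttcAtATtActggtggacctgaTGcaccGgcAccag
Cyp2d11: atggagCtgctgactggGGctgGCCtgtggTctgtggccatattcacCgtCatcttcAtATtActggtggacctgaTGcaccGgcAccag
Cyp2d34: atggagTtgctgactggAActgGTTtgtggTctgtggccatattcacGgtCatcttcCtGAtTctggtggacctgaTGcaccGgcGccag
For these groups the subfamily sum is given as well as each row.

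In monolayers compared with crypts, 5 members rose, 22 fell and 7 were not called. Over all genes tested, 30.7% were called higher and 32.8% lower. The median log2 change of the 34 tested members was -1.59, beside -0.03 over all genes. Some of these members passed the filter on low counts through a single kind of sample. Cyp2c68, Cyp2c69, Cyp4b1, Cyp2j9, Cyp2w1 and Cyp2f2 passed through crypts, with at most 22 counts in monolayers. So did Cyp2r1, with 33 counts in monolayers. Cyp1a1, Cyp1b1 and Cyp2b10 passed through monolayers, with no count in crypts. So did Cyp26b1 and Cyp4f39, with 4 and 9 crypt counts, each in 1 crypt library. The filter largely fixed the direction of these members, which is thus no separate evidence. Values over all genes rest on the same filter, and its part in them was not tested. In these bulk samples, fewer cells of a type and less RNA per cell cannot be told apart. Of the 34 tested members, 5 had every monolayer library above every crypt library, and these were the 5 that rose. Another 18 of the 34, all among the 22 that fell, had every monolayer library below every crypt library. Over all genes tested, 22.7% lay wholly above and 23.2% wholly below the crypts in this way. The share of all gene counts that fell on members was 0.0373 to 0.0459% at day 3, 0.0632 to 0.0844% at day 4, 0.131 to 0.146% at day 5 and 0.201 to 0.224% in crypts. Scaling by library totals in place of TMM left the counts at 5 and 22, but lowered the median log2 change over all genes by 0.18 and put 37.7% of all called genes on the higher side, against 48.3% with TMM.

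**Figure D1:**
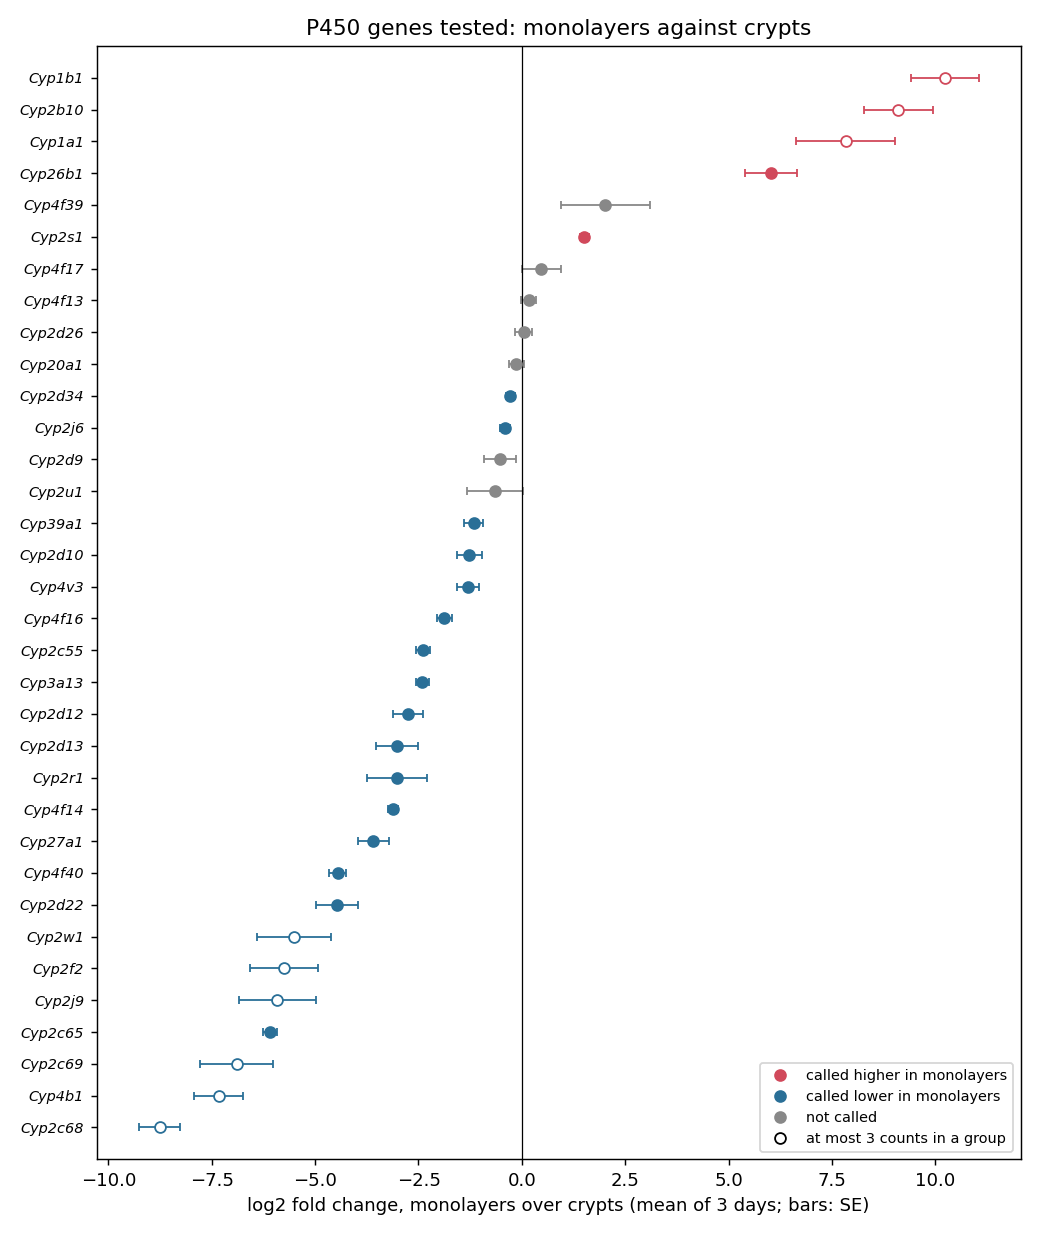
Log2 fold change of the 34 tested P450 genes, monolayers over crypts (mean of the 3 days, bars SE), sorted by size; red marks genes called higher, blue genes called lower, grey genes not called, and open circles genes with at most 3 counts in a group, whose fitted fold depends on a prior count. Far more points lie left of 0 (22 called) than right of it (5 called).

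The 5 members that rose are Cyp1a1, Cyp1b1, Cyp2b10, Cyp26b1 and Cyp2s1, and each was called at all 3 days. Cyp1a1 oxidises polycyclic aromatic hydrocarbons and is the best known target of the Ah receptor. It had 2.996, 4.88 and 3.79 CPM at day 3, 1.81, 2.06 and 3.75 CPM at day 4, 0.806, 3.77 and 3.47 CPM at day 5 and 0 CPM in all 3 libraries of crypts. It was present in all 9 monolayer libraries at a low level, and was at least 25.4-fold higher in monolayers when the pooled crypts are set to 3 counts (edgeR adjusted p = 2.31e-05). Cyp1b1, which oxidises the same class of compounds and oestrogens, had 16.5, 17.6 and 12.8 CPM at day 3, 16.4, 34.03 and 36.5 CPM at day 4, 6.05, 7.26 and 13.5 CPM at day 5 and 0 CPM in all 3 libraries of crypts. It was at least 143-fold higher in monolayers (edgeR adjusted p = 9.99e-09), and was the only tested member called lower at day 5 than at day 4, with a log2 change of -1.70 ± 0.34 (edgeR adjusted p = 0.00477). Cyp2b10, in mouse liver a target of the receptor CAR (Nr1i3), had 8.59, 7.68 and 6.44 CPM at day 3, 5.77, 7.29 and 7.02 CPM at day 4, 4.03, 9.24 and 9.36 CPM at day 5 and 0 CPM in all 3 libraries of crypts. It was at least 58.1-fold higher in monolayers (edgeR adjusted p = 6.2e-08), and none of its 3 differences between days was called. These lower bounds cover counting error only.

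The 250 bases before the start of these 3 genes, which were not detected in crypts, are shown from RefSeq on GRCm38.p6, with matches to GCGTG, the core of the Ah receptor binding motif, in capitals on either strand (a match on the other strand reads CACGC). The search covered both strands, counted overlapping matches, and found the core in 28.2% of all 32851 RefSeq promoters of this length. Cyp1a1 lies on the plus strand at chr9:57697363-57697612, Cyp1b1 on the minus strand at chr17:79715062-79715311 and Cyp2b10 on the plus strand at chr7:25897408-25897657.
Cyp1a1: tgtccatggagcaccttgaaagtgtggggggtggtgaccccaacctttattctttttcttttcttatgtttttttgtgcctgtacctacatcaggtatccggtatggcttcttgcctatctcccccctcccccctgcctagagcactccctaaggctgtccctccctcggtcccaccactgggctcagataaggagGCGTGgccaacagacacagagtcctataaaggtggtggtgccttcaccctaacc
Cyp1b1: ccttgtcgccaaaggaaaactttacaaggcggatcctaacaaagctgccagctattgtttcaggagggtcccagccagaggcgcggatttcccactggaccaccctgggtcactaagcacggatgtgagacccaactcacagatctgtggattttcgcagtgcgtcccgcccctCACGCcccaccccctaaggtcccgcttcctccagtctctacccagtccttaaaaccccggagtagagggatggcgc
Cyp2b10: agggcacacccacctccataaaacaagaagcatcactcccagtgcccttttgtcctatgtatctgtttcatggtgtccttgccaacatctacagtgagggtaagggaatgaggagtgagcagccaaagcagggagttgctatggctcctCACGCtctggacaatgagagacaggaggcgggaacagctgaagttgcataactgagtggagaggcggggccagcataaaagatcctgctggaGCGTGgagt
The match of Cyp1a1 begins 54 bases before the start, that of Cyp1b1 76 bases before it, and those of Cyp2b10 begin 101 and 9 bases before it. Cyp26b1 and Cyp2s1 had no match in this window. Of the 71 members with a RefSeq promoter, 15 (21.1%) held the core, and of the 27 tested ones 11 did. A member was counted if any of its promoters held the core, whereas the 28.2% above is a share of promoters. Those 11 include genes that fell, such as Cyp4f14 and Cyp2c68. A match is a description of the letters and does not show binding.

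Cyp26b1, which breaks down retinoic acid, had 2.397, 5.88 and 4.699 CPM at day 3, 19.4, 10.8 and 9.93 CPM at day 4, 31.2, 32.01 and 29.3 CPM at day 5 and 0.801, 0 and 0 CPM in crypts. Its level was higher at each later day, and all 4 crypt counts came from crypts replicate 1. The ratio of pooled CPM between monolayers and crypts was 84.2 (exact 95% interval 32.8 to 310, counting error only). The fitted log2 change was 6.03 ± 0.63 (edgeR adjusted p = 1.21e-07), and it was 5.19 without crypts replicate 3 and 9.91 without crypts replicate 1, a value that depends on the prior count since no crypt count is left. Day 5 exceeded day 3 by 2.81 ± 0.41 (edgeR adjusted p = 6.07e-05). Its relatives Cyp26a1 and Cyp26c1 had 0 and 8 counts in all.

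Cyp2s1, a P450 of epithelia outside the liver, was the 1 member that rose and also had more than 1 CPM in crypts. It had 143, 162 and 186 CPM at day 3, 250.05, 196 and 196 CPM at day 4, 229, 219.8 and 221 CPM at day 5 and 69.3, 61.6 and 77.6 CPM in crypts. The groups did not overlap, at 200.3 ± 33.6 CPM in monolayers and 69.5 ± 8.001 CPM in crypts, a log2 change of 1.51 ± 0.11 (edgeR adjusted p = 5.09e-10). Per kilobase of transcript, Cyp2s1 was the highest tested member at day 3, at 51.8 CPM per kb, and sixth in crypts, at 22 CPM per kb.

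**Figure D2:**
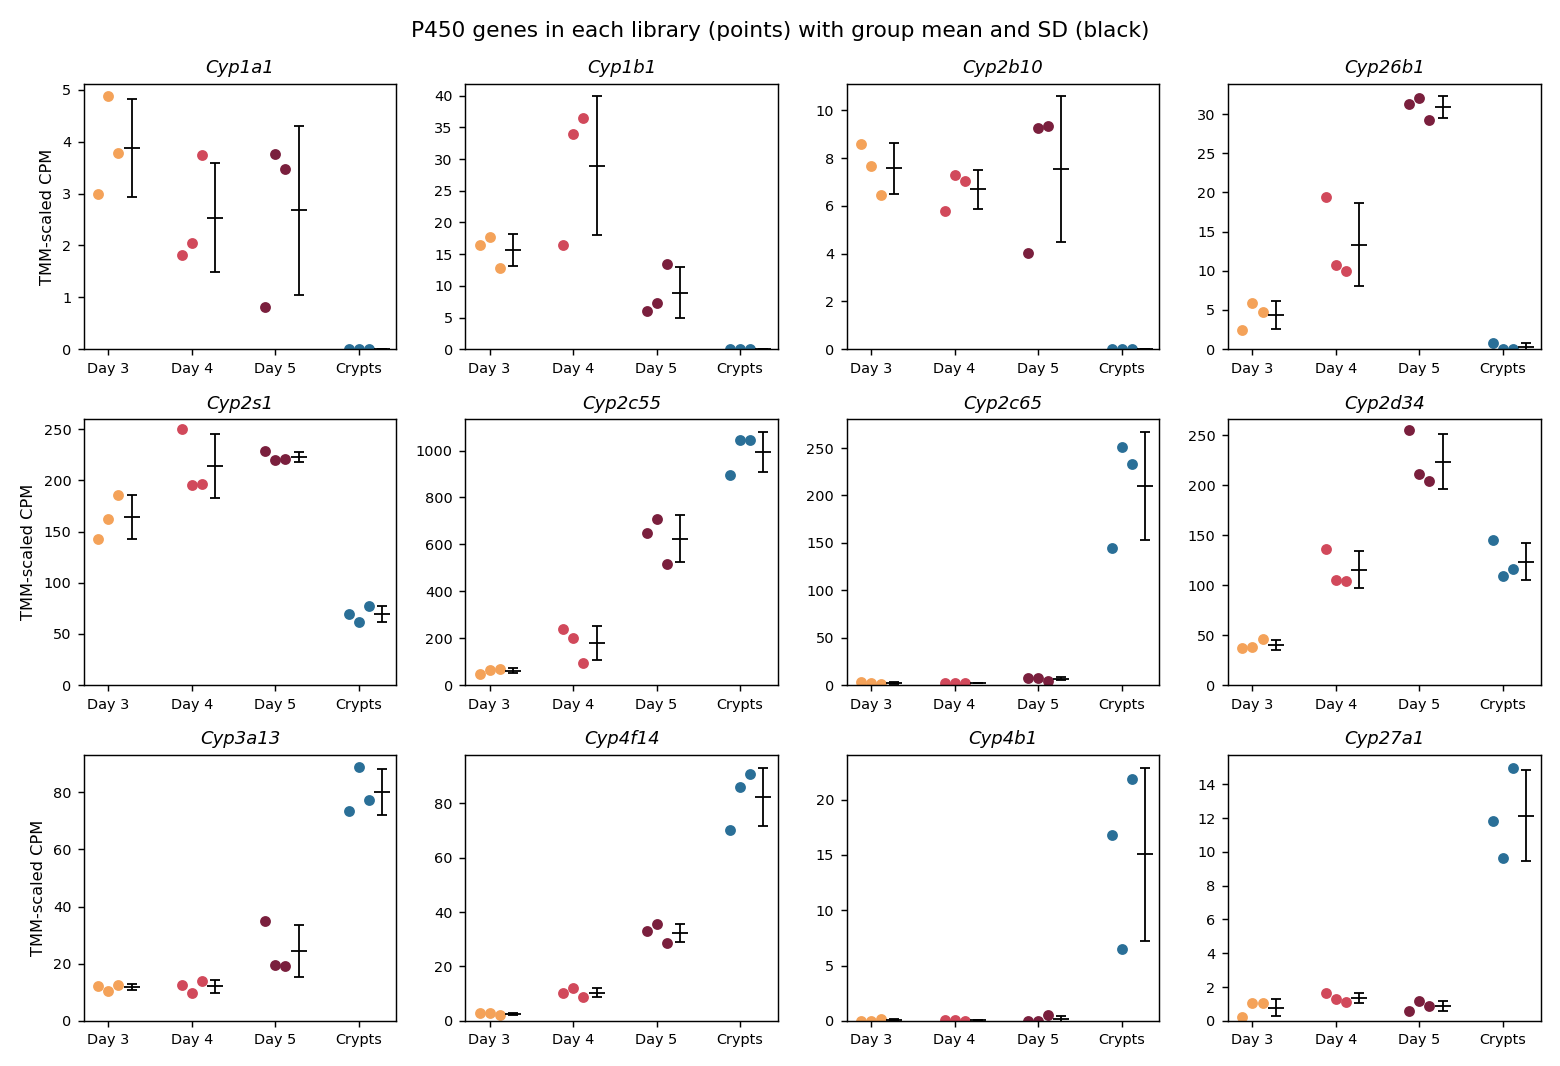
TMM-scaled CPM of 12 P450 genes in every library (points) with the group mean and SD (black), for day 3, day 4, day 5 and crypts from left to right; each panel has its own axis from 0. The upper row and Cyp2s1 show genes higher in all monolayer libraries than in crypts, Cyp2c55, Cyp2d34 and Cyp4f14 show levels that differ by day, and Cyp2c65, Cyp4b1 and Cyp27a1 stay far below the crypts at every day.

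Cyp2c, the largest subfamily with 15 members, held the P450 with the highest level per kilobase in crypts. Cyp2c55, an arachidonic acid oxidising enzyme of the mouse colon, had 49.03, 63.6 and 69.9 CPM at day 3, 239.8, 202 and 96.03 CPM at day 4, 649, 709 and 514 CPM at day 5 and 897, 1045 and 1044 CPM in crypts. No monolayer library reached a crypt library. The log2 change against crypts was -4.03 at day 3, -2.47 at day 4 and -0.67 at day 5, with edgeR adjusted p of 8.48e-11, 3.04e-08 and 0.0123 in that order. Without day 5 replicate 3 the day 5 change was -0.55 and no longer called. Per kilobase of transcript Cyp2c55 stood at 30.5, 89.9 and 313 CPM per kb at day 3, day 4 and day 5 and at 499 CPM per kb in crypts, first of the tested members at day 4, at day 5 and in crypts.

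The other 3 tested Cyp2c members stayed below the crypts at every day. Cyp2c65 had 3.195, 2.01 and 1.36 CPM at day 3, 2.07, 2.15 and 2.06 CPM at day 4, 7.86, 6.904 and 4.68 CPM at day 5 and 145, 251 and 233 CPM in crypts. It averaged 3.59 ± 2.37 CPM in monolayers and 209.9 ± 56.9 CPM in crypts, a log2 change of -6.09 ± 0.17 (edgeR adjusted p = 7.46e-16), and its level at day 5 exceeded that at day 4 by 1.63 ± 0.32 (edgeR adjusted p = 0.00311). Cyp2c68 had 9 counts in the 9 monolayer libraries and 689 in the 3 of crypts. In CPM this was 0.0999, 0 and 0.0758 CPM at day 3, 0 CPM in all 3 libraries of day 4, 1.01, 0 and 0.347 CPM at day 5 and 37.7, 20.1 and 31.3 CPM in crypts. Its pooled CPM was 289 times higher in crypts than in monolayers (exact 95% interval 151 to 635), with edgeR adjusted p = 1.48e-10. Cyp2c69 had 3 counts in monolayers and 111 in crypts, a pooled ratio of crypts to monolayers of 139.6 (exact 95% interval 46.6 to 687, edgeR adjusted p = 3.23e-06). Its fitted log2 change of -6.90 became -7.68 without day 3 replicate 1 and -6.07 without crypts replicate 3. Cyp2c69 had no count at day 5, so this fitted mean over the days depends on the prior count. The near copies Cyp2c66, Cyp2c67 and Cyp2c40 had 31, 17 and 6 counts, all in crypts, and stayed below the filter. Cyp2c44 had 10 counts in monolayers and 9 in crypts, and the other 7 Cyp2c members had none.

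A subfamily sum does not depend on how reads were divided among its rows, though it still lacks reads that fit several copies. Summed over Cyp2c, the level was 63.2 ± 9.65 CPM at day 3, 181.5 ± 74.6 CPM at day 4, 631 ± 101 CPM at day 5 and 1242 ± 137 CPM in crypts. Without Cyp2c55 the sum was 2.34 ± 1.05 CPM at day 3, 2.25 ± 0.32 CPM at day 4, 7.14 ± 1.75 CPM at day 5 and 246 ± 51.8 CPM in crypts. The later-day level of the subfamily therefore lies almost wholly in Cyp2c55. The crypt libraries were the ones with counts of the small-intestinal markers Sis (394 counts) and Fabp6 (211 counts), which had none in monolayers; the part of such transcripts in the Cyp2c result was not tested.

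**Figure D3:**
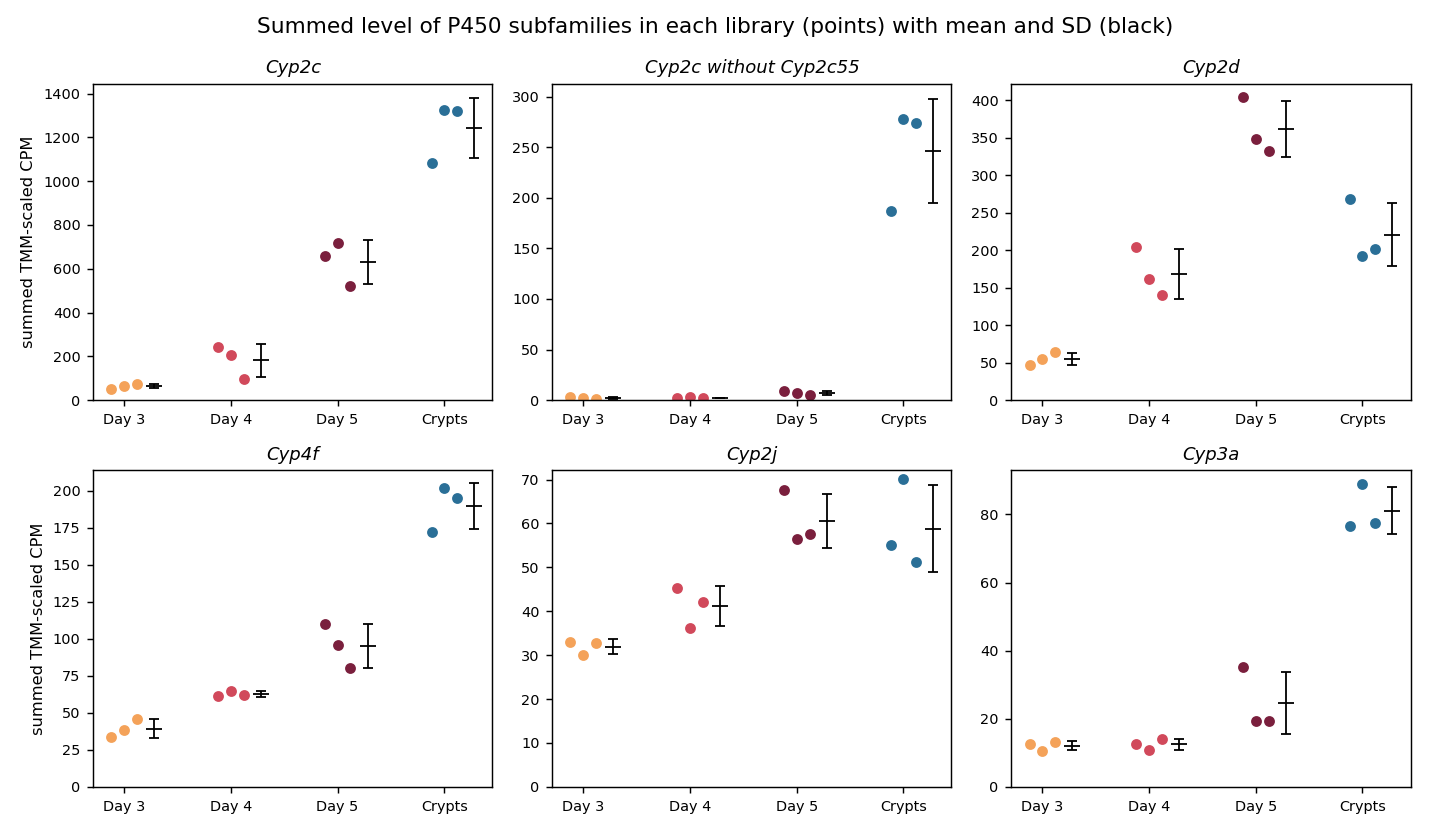
Summed TMM-scaled CPM of P450 subfamilies in every library (points) with mean and SD (black), for day 3, day 4, day 5 and crypts from left to right; each panel has its own axis from 0. Cyp2c and Cyp4f stay below the crypts at every day, Cyp2d passes them at day 5 (361 against 221 CPM), and Cyp2c without Cyp2c55 stays near 0 in all monolayers.

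Cyp2d, a drug-metabolising subfamily with more members in mice than in humans, stood below the crypts at day 3 and above them at day 5. Its summed level was 54.9 ± 8.39 CPM at day 3, 168.5 ± 33 CPM at day 4, 361 ± 37.9 CPM at day 5 and 221 ± 41.6 CPM in crypts. Cyp2d34 had 36.5, 37.9 and 45.9 CPM at day 3, 136, 105 and 105 CPM at day 4, 255, 211 and 204 CPM at day 5 and 145, 109 and 116 CPM in crypts, so day 3 lay below, day 4 overlapped and day 5 lay above the crypts. Its log2 change was -1.61 at day 3, -0.09 at day 4 and 0.86 at day 5, and the day 3 fall and the day 5 rise were called (edgeR adjusted p = 1.25e-08 and 2.53e-05). Cyp2d26 ran the same way, with 9.39 ± 3.12 CPM at day 3, 33.7 ± 10.6 CPM at day 4, 74.6 ± 3.69 CPM at day 5 and 27.6 ± 8.31 CPM in crypts. Its fall at day 3, with a log2 change of -1.56 ± 0.26, and its rise at day 5, with 1.42 ± 0.24, were both called (edgeR adjusted p = 5.1e-05 and 7.45e-05). The mean over the 3 days hides this: it was 0.05 for Cyp2d26, not called and of either sign when 1 library was left out, and -0.28 for Cyp2d34, a call that was lost without day 3 replicate 1 or 2, day 4 replicate 2 or 3, day 5 replicate 2 or 3 or crypts replicate 1 (-0.26 to -0.15).

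Cyp2d9, Cyp2d10 and Cyp2d12 were lower at day 3 and not called at day 5. The log2 change against crypts was -2.98 at day 3, -1.46 at day 4 and 0.62 at day 5 for Cyp2d10, -5.16 at day 3, -2.77 at day 4 and -0.31 at day 5 for Cyp2d12 and -2.28 at day 3, -0.25 at day 4 and 0.96 at day 5 for Cyp2d9. Cyp2d9 averaged 10.97 ± 9.3 CPM in monolayers and 11.3 ± 5.61 CPM in crypts, and Cyp2d10 averaged 8.86 ± 10.01 CPM in monolayers and 13.1 ± 3.82 CPM in crypts. Cyp2d12 had 0.799, 0.502 and 0.606 CPM at day 3, 5.94, 2.62 and 1.21 CPM at day 4, 15.3, 22.4 and 16.99 CPM at day 5 and 42.5, 12.01 and 15.1 CPM in crypts. Its crypt level rested most on crypts replicate 1, without which its changes at day 3 and day 4 were -4.41 and -2.02; the day 4 change was -3.53 without day 4 replicate 1, and the day 3 change of Cyp2d9 was -3.05 without day 3 replicate 2. The mean over the 3 days was called for Cyp2d12, at -2.75 and -1.99 without crypts replicate 1, and for Cyp2d10, at -1.27. Cyp2d11, the closest copy of Cyp2d10, had 23 counts in 7 monolayer libraries and none in crypts, below the filter. Cyp2d9 was called higher at day 5 without crypts replicate 1, with a log2 change of 1.42, and with no filter (0.97) and with only the groups compared (0.95).

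Cyp2d22 and Cyp2d13 stayed low in monolayers. Cyp2d22 had 0.699, 0 and 0.227 CPM at day 3, 1.21, 0.935 and 1.33 CPM at day 4, 0, 1.61 and 0.347 CPM at day 5 and 19.03, 13.6 and 10.7 CPM in crypts, a log2 change of -4.47 ± 0.51 (edgeR adjusted p = 3.77e-07) that became -5.13 without day 5 replicate 2. Cyp2d13 had 0.2996, 0.717 and 0.379 CPM at day 3, 0.948, 1.78 and 0 CPM at day 4, 2.02, 1.704 and 1.73 CPM at day 5 and 9.01, 4.83 and 9.02 CPM in crypts, a change of -3.01 ± 0.51 (edgeR adjusted p = 4.82e-05). Every monolayer library lay below every crypt library for both genes. The row of the pseudogene Cyp2d37-ps, which the symbol rule leaves out, fell too, with a log2 change of -3.07 (edgeR adjusted p = 0.000588).

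In Cyp4f, whose members hydroxylate leukotrienes and other fatty acids, 3 of the 6 tested members fell and 3 were not called. Cyp4f14 had 2.896, 2.73 and 2.198 CPM at day 3, 10.2, 11.97 and 8.72 CPM at day 4, 32.9, 35.4 and 28.6 CPM at day 5 and 70.1, 85.9 and 90.8 CPM in crypts, so every step of the days was higher than the one before and all stayed below the crypts. Its log2 change was -4.98 at day 3, -3.0 at day 4 and -1.35 at day 5, with edgeR adjusted p of 2.76e-13, 5.39e-11 and 1.13e-06 in that order. Cyp4f40 had 1.897, 2.08 and 1.67 CPM at day 3, 1.21, 0.654 and 0.848 CPM at day 4, 4.03, 2.69 and 2.6 CPM at day 5 and 34.2, 45.3 and 35.5 CPM in crypts, a change of -4.45 ± 0.20 (edgeR adjusted p = 8.54e-13). Cyp4f16 had 6.39, 7.75 and 10.4 CPM at day 3, 10.2, 9.91 and 8.48 CPM at day 4, 10.3, 16.6 and 13.3 CPM at day 5 and 27.4, 45.9 and 39.1 CPM in crypts, a change of -1.88 ± 0.18 (edgeR adjusted p = 4.65e-08), and 24.8% of its 50-base stretches also occur in Cyp4f37. Cyp4f13 averaged 32.5 ± 10.8 CPM in monolayers and 28.04 ± 4.97 CPM in crypts, Cyp4f17 averaged 3.75 ± 1.66 CPM in monolayers and 2.65 ± 2.23 CPM in crypts and Cyp4f39, an enzyme of skin lipid synthesis, averaged 2.05 ± 1.21 CPM in monolayers and 0.601 ± 1.04 CPM in crypts, none of them called at any day. All 9 crypt counts of Cyp4f39 came from crypts replicate 1; without it Cyp4f39 was called higher, at 7.29, which depends on the prior count since no crypt count is left, and so was Cyp4f17, at 1.32. The summed level of Cyp4f was 39.4 ± 6.15 CPM at day 3, 62.6 ± 1.8 CPM at day 4, 95.2 ± 14.8 CPM at day 5 and 189.5 ± 15.6 CPM in crypts.

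Cyp4b1 and Cyp4v3, fatty acid hydroxylases outside that subfamily, fell as well. Cyp4b1 had 0, 0 and 0.152 CPM at day 3, 0.0861, 0.0935 and 0 CPM at day 4, 0, 0 and 0.52 CPM at day 5 and 16.8, 6.52 and 21.8 CPM in crypts, which is 7 counts in monolayers and 376 in crypts. Its pooled CPM was 203 times higher in crypts than in monolayers (exact 95% interval 97.4 to 508, edgeR adjusted p = 3.1e-09), and the fitted log2 change of -7.33 became -8.08 without day 3 replicate 3 and -8.54 without day 5 replicate 3. Cyp4v3 averaged 5.603 ± 1.47 CPM in monolayers and 13.7 ± 4.18 CPM in crypts, a log2 change of -1.30 ± 0.26 (edgeR adjusted p = 0.000229). No Cyp4a member passed the filter: 2 had 1 count each and 2 had none. These are fatty acid hydroxylases that the receptor PPAR alpha (Ppara) induces in liver.

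Cyp3a13, the member of the main drug-oxidising subfamily that is known from the intestine, fell. It had 12.2, 10.5 and 12.5 CPM at day 3, 12.5, 9.63 and 14.05 CPM at day 4, 35.1, 19.5 and 19.2 CPM at day 5 and 73.5, 89 and 77.4 CPM in crypts, a log2 change of -2.41 ± 0.15 (edgeR adjusted p = 1.11e-10), with no overlap between the groups. Day 5 exceeded day 3 by 1.05 ± 0.22 (edgeR adjusted p = 0.00182). Cyp3a25 had 16 counts, all in crypts replicate 1, Cyp3a57 had 20, all in monolayers, Cyp3a11 and Cyp3a16 had 3 each, and Cyp3a44 and Cyp3a59 had none.

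Of Cyp2j, epoxygenases of arachidonic acid, Cyp2j6 averaged 31.8 ± 1.53 CPM at day 3, 40.9 ± 4.98 CPM at day 4, 60.5 ± 6.12 CPM at day 5 and 56.7 ± 9.97 CPM in crypts. It was called lower at day 3 (-0.83 ± 0.15, edgeR adjusted p = 8.04e-05) and at day 4 (-0.47 ± 0.14, edgeR adjusted p = 0.00934), and not at day 5. The day 4 call was lost without day 4 replicate 2 (-0.37) and without crypts replicate 2 (-0.31), and the mean over the days, -0.41, was -0.25 and not called without crypts replicate 2. Cyp2j9 had 3 counts in monolayers and 46 in crypts, 57.9 times higher in crypts by pooled CPM (exact 95% interval 18.6 to 291, edgeR adjusted p = 3.24e-05). Its fitted change of -5.91 became -6.65 without day 3 replicate 3 and -6.53 without day 4 replicate 3. Cyp2j9 had no count at day 5, so this fitted mean over the days depends on the prior count.

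Cyp2f2, which activates naphthalene in mouse lung, had 22 counts in monolayers and 146 in crypts, 25.1 times higher in crypts by pooled CPM (exact 95% interval 15.9 to 41.2, edgeR adjusted p = 1.26e-05). Its fitted log2 change was -5.76, and -6.50 without day 4 replicate 2, where it stood at 1.40 CPM. Cyp2w1, known in humans from colon tumours, had 15 counts in monolayers and 95 in crypts, 23.9 times higher in crypts (exact 95% interval 13.8 to 44.4, edgeR adjusted p = 4.7e-05). Its fitted change of -5.50 became -6.69 without day 3 replicate 2 and -7.07 without day 5 replicate 2, the only monolayer libraries with counts of it. Cyp2f2 had no count at day 3 and Cyp2w1 none at day 4, so these fitted means over the days depend on the prior count.

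Among enzymes of sterols and bile acids, Cyp27a1, the mitochondrial sterol hydroxylase that starts the acidic bile acid pathway, had 0.1997, 1.08 and 1.06 CPM at day 3, 1.64, 1.31 and 1.09 CPM at day 4, 0.605, 1.17 and 0.867 CPM at day 5 and 11.8, 9.66 and 14.98 CPM in crypts. It fell, with a log2 change of -3.59 ± 0.36 (edgeR adjusted p = 7.99e-08), with no overlap between the groups. Cyp39a1, which hydroxylates oxysterols, averaged 6.94 ± 1.63 CPM in monolayers and 15.5 ± 2.88 CPM in crypts, a log2 change of -1.17 ± 0.23 (edgeR adjusted p = 0.000212). The liver enzymes of bile acid synthesis were at or near 0, with 1 count of Cyp7a1, 3 of Cyp7b1 and none of Cyp8b1. Cyp51, the sterol demethylase of cholesterol synthesis, lies outside the symbol rule; it had 584 ± 63.7 CPM in monolayers and 134 ± 30.9 CPM in crypts and rose by 2.11 ± 0.12 on the log2 scale (edgeR adjusted p = 1.73e-11).

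Of the vitamin D enzymes, Cyp2r1, a hydroxylase that activates the vitamin, averaged 0.403 ± 0.326 CPM in monolayers and 3.11 ± 1.5 CPM in crypts, a log2 change of -3.02 ± 0.72 (edgeR adjusted p = 0.00125) and -3.84 without day 3 replicate 1. Cyp24a1, which inactivates the vitamin and is induced through its receptor, had 0 CPM in all 3 libraries of day 3, 0 CPM in all 3 libraries of day 4, 0 CPM in all 3 libraries of day 5 and 0.801, 0 and 0 CPM in crypts. Those were 4 counts in 1 crypt library. Cyp27b1, which completes the activation, had 0 CPM in all 3 libraries of day 3, 0, 0 and 0.363 CPM at day 4, 0 CPM in all 3 libraries of day 5 and 0 CPM in all 3 libraries of crypts, 3 counts in 1 library. Both stayed below the filter.

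Set against crypts day by day, 5 members were higher and 24 lower at day 3, where 28.4% of all genes were higher and 27.9% lower. At day 4 they were 5 and 21, against 28.7% and 28.4% of all genes. At day 5 they were 7 and 17, against 28.4% and 28.9% of all genes, with Cyp2d26 and Cyp2d34 added to the higher side; without crypts replicate 1 the 7 became 11, with Cyp2d9, Cyp4f13, Cyp4f17 and Cyp4f39. The median log2 change of the 34 tested members was -2.53 at day 3, -1.75 at day 4 and -0.81 at day 5, beside -0.03, -0.02 and -0.03 over all genes. The 3 comparisons share the crypt libraries, and the limit set by the filter on low counts, given above, holds for them too. The share of all genes called in the same direction at all 3 days was not computed, so the next counts have no background beside them. Members called lower at all 3 days numbered 17, and 13 of these kept all 3 calls in each of the 12 fits without 1 library. In these fits the other 4 lost only the day 5 call: Cyp2c55 (above), Cyp2d13 without day 5 replicate 2, day 5 replicate 3 or crypts replicate 3 (-2.01, -2.03 and -1.92), Cyp2w1 without day 5 replicate 3 (-3.11) and Cyp4v3 without day 5 replicate 1, day 5 replicate 3 or crypts replicate 2 (-0.86, -0.94 and -0.70). DESeq2's own test on all libraries did not call Cyp2w1 at day 3 (-4.89) or at day 5 (-3.94). Not called at any day were Cyp20a1, a P450 of unknown function, Cyp2u1, a fatty acid hydroxylase, Cyp4f13, Cyp4f17 and Cyp4f39. Cyp20a1 averaged 11.6 ± 2.81 CPM in monolayers and 12.5 ± 1.15 CPM in crypts, and Cyp2u1 averaged 1.21 ± 1.29 CPM in monolayers and 1.39 ± 1.44 CPM in crypts. With library totals in place of TMM the higher share of all called genes was 39.9% at day 3, 40% at day 4 and 37.7% at day 5, against 50.4%, 50.2% and 49.6% with TMM.

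**Figure D4:**
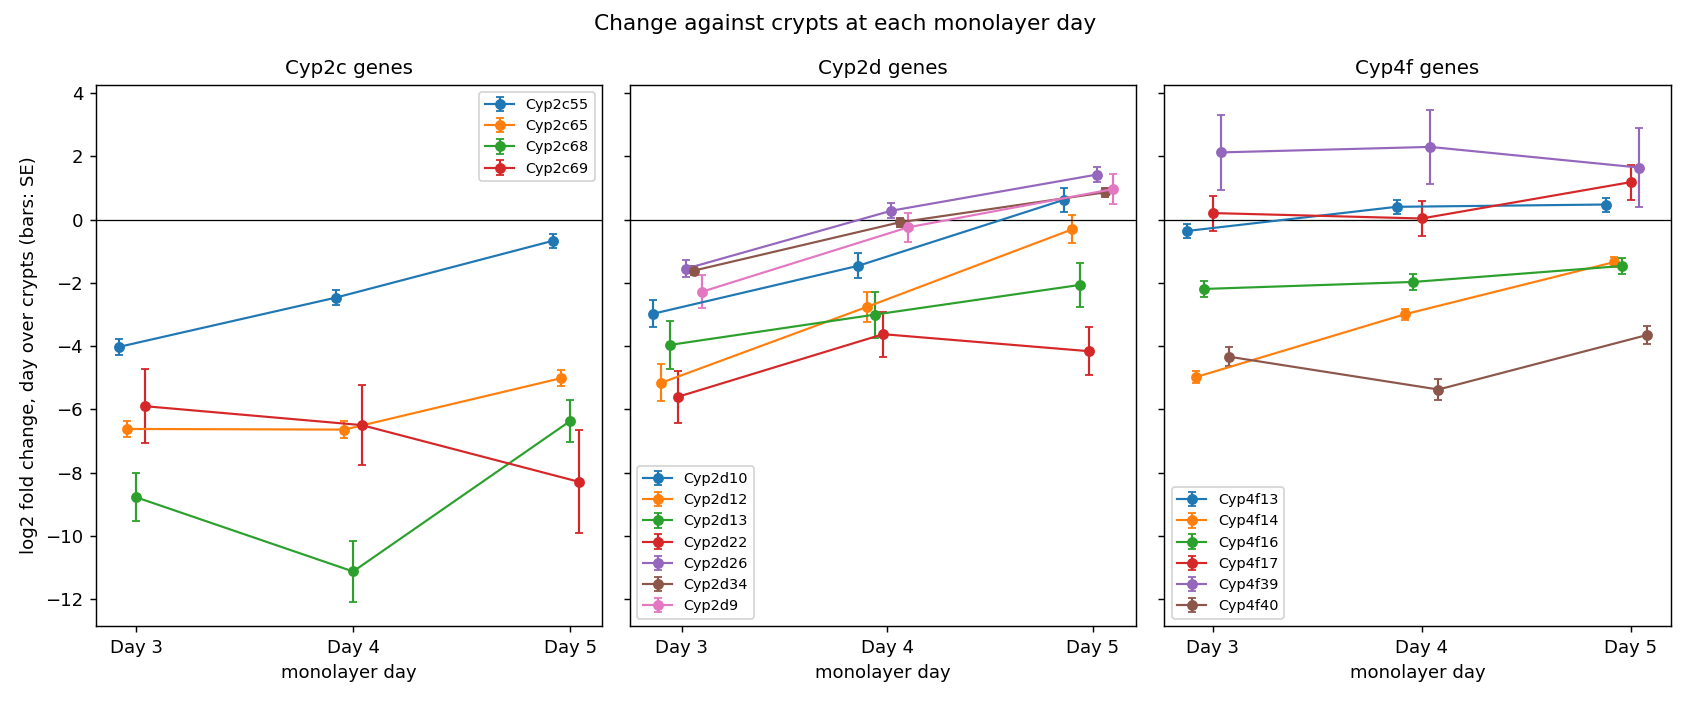
Log2 fold change against crypts (day over crypts, bars SE) at day 3, day 4 and day 5 for the tested Cyp2c, Cyp2d and Cyp4f genes, 1 panel per subfamily; the line at 0 marks the crypt level. Cyp2c55, Cyp4f14 and 5 Cyp2d genes approach or pass 0 by day 5, and the points of Cyp2c68 and Cyp2c69 rest on 0 to 7 counts a day.

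Between the days nearly all called differences were rises. Day 4 exceeded day 3 for 7 members and fell below it for 0, where 1.59% of all genes were higher and 1.17% lower. At an unadjusted p under 0.05, 2 members were lower (Cyp20a1 and Cyp4f40), and DESeq2 called 0. The 7 were Cyp26b1, Cyp2c55, Cyp2d9, Cyp2d12, Cyp2d26, Cyp2d34 and Cyp4f14; Cyp26b1, Cyp2d9 and Cyp2d12 fell out of the calls in several fits without 1 library, which called 4 to 9 members, with 4 without day 3 replicate 1, day 3 replicate 3, day 4 replicate 1, day 4 replicate 2 or day 5 replicate 2. Day 5 exceeded day 4 for 10 members and was lower for Cyp1b1, beside 3.36% and 4.2% of all genes. Day 5 exceeded day 3 for 14 members and was lower for 0, beside 9.9% and 10.5% of all genes. At an unadjusted p under 0.05, 2 members were lower at day 5 than at day 3 (Cyp1b1 and Cyp20a1), and DESeq2 called Cyp20a1, at -0.66.

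The steepest rise between day 3 and day 5 was that of Cyp2d12, by 4.85 ± 0.58 on the log2 scale (edgeR adjusted p = 8.2e-06). Cyp4f14 rose by 3.64 ± 0.20, Cyp2d10 by 3.60 ± 0.43, Cyp2c55 by 3.36 ± 0.24, Cyp2d9 by 3.24 ± 0.51 (4.01 without day 3 replicate 2), Cyp2d26 by 2.98 ± 0.26 and Cyp2d34 by 2.47 ± 0.14, all with edgeR adjusted p under 0.05. Cyp2u1 rose by 3.04 ± 0.88 with 48 counts at day 5 and 11 at day 3, a call lost without any 1 day 3 library or without day 5 replicate 1 (2.49 to 3.21). Cyp2s1 rose by 0.44 ± 0.12 and Cyp4f13 by 0.84 ± 0.22; these calls were lost without day 3 replicate 1 (0.35 and 0.68), and that of Cyp4f13 also without day 5 replicate 1 (0.56). Cyp27a1, Cyp39a1, Cyp2d22, Cyp4v3 and Cyp4b1 showed no called difference between days.

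The 34 members below the filter reached at most 55 counts over the 12 libraries (Cyp11a1, the first enzyme of steroid synthesis, with 40 in monolayers and 15 in 1 crypt library). Counts fell only in monolayers for 22 of them, among them Cyp19a1, the aromatase, with 39 counts in 5 libraries, 20 of them in 1. They fell only in crypts for 6, namely Cyp2c66, Cyp2c67, Cyp2c40, Cyp3a25, Cyp24a1 and Cyp4f18, and in both for Cyp11a1, Cyp21a1, Cyp26c1, Cyp2ab1, Cyp2c44 and Cyp4f15. The other monolayer-only members are Cyp11b1, Cyp11b2, Cyp27b1, Cyp2a12, Cyp2a22, Cyp2b9, Cyp2b19, Cyp2d11, Cyp2j5, Cyp2j8, Cyp2j11, Cyp2t4, Cyp3a11, Cyp3a16, Cyp3a57, Cyp46a1, Cyp4a10, Cyp4a31, Cyp4x1, Cyp7a1 and Cyp7b1, each with 1 to 23 counts. Monolayers hold 9 libraries and most of the depth, so counts in them alone are no sign of a difference. Most are known from liver, adrenal gland, gonads or skin.

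The 24 members with 0 counts were not detectable at this depth, which allows up to 0.215 to 0.605 CPM in a single library. They are the steroid and bile acid enzymes Cyp17a1 and Cyp8b1, the retinoic acid hydroxylase Cyp26a1, Cyp1a2, Cyp2e1 and Cyp2g1, Cyp2a4 and Cyp2a5, Cyp2b13 and Cyp2b23, and Cyp2d40. The Cyp2c members are Cyp2c29, Cyp2c37, Cyp2c38, Cyp2c39, Cyp2c50, Cyp2c54 and Cyp2c70, and the rest are Cyp2j12, Cyp2j13, Cyp3a44, Cyp3a59, Cyp4a14 and Cyp4a32. Some have near copies from which few reads could be told apart: Cyp2a4 and Cyp2a5 are 98.5% identical in coding sequence, Cyp3a25 and Cyp3a59 97.5%, and Cyp4a10 and Cyp4a32 97.2%. The symbol rule also leaves out 10 rows with P450 names, of which Cyp51 and Cyp2d37-ps were tested, and the other 8 had 0 to 53 counts each.

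Of 12 listed electron donors and their partners 10 were tested, and 7 rose in monolayers and the other 3 were not called, with a median log2 change of 0.65 beside -0.03 over all genes, of which 30.7% rose. At day 5 alone, 5 of the 10 were called higher, beside 28.4% of all genes. Por averaged 457 ± 87.4 CPM in monolayers and 124 ± 9.48 CPM in crypts, a log2 change of 1.86 ± 0.08 (edgeR adjusted p = 3.45e-13), and was 0.62 ± 0.09 higher on the log2 scale at day 5 than at day 3 (edgeR adjusted p = 3.7e-05). Cyb5r3, Cyb5r1 and Pgrmc2 rose by 0.95, 0.92 and 0.77. Of 12 genes that make or break down haem, 4 rose, 3 fell and 5 were not called, beside 30.7% higher and 32.8% lower over all genes. Haem oxygenase Hmox1 rose by 5.38 ± 0.26, and Alas1, the first enzyme of haem synthesis, fell by 0.93 on the log2 scale, with Uros at -0.89 and Alad at 0.58.

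Of 22 listed regulators of P450 genes, most of them nuclear receptors, 18 were tested, 6 rose, 10 fell and 2 were not called, with a median log2 change of -0.57. Over all genes the median was -0.03, with 30.7% called higher and 32.8% called lower. Ahr, the Ah receptor itself, had 36.9 ± 8.09 CPM in monolayers and 20.7 ± 3.99 CPM in crypts, a change of 0.83 ± 0.16 (edgeR adjusted p = 0.000154). Nr1i2, the xenobiotic receptor PXR, had 35.2 ± 9.05 CPM in monolayers and 62 ± 7.65 CPM in crypts, a change of -0.85 ± 0.13 (edgeR adjusted p = 1.46e-05). Vdr, the vitamin D receptor, had 15.7 ± 9.34 CPM in monolayers and 364 ± 20.9 CPM in crypts, a change of -4.70 ± 0.11 (edgeR adjusted p = 1.53e-16). Nr5a2, Ppara and Nr1h3 fell by 5.47, 5.31 and 4.31 on the log2 scale. Of 10 other genes known as Ah receptor targets 9 were tested, 5 rose, 2 fell and 2 were not called, beside 30.7% higher and 32.8% lower over all genes. Their median log2 change was 0.53. Whether the Ah receptor was active was not tested. Tiparp rose by 1.87 ± 0.12, Gsta1 by 3.70 ± 0.24 and Nfe2l2 by 0.53 ± 0.07, and Ugt1a6a fell by 4.59 on the log2 scale.

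All 10 listed markers of colonic epithelium had counts in both kinds of sample, and their summed level was 11100 to 13240 CPM in monolayers and 11560 to 15020 CPM in crypts. Of 7 hepatocyte markers 5 had counts in each. The sum was 3.5 to 16.8 CPM in monolayers and 47.6 to 69.8 CPM in crypts, with Serpina1a and Fgb at 0 and 2 counts of Alb in each. Most of it came from Tat, with a mean of 8.33 CPM in monolayers and 33.7 CPM in crypts, and in crypts also from Ttr and Apoa1. Ttr averaged 0.0353 CPM in monolayers and 16.5 CPM in crypts, and Apoa1 0.176 CPM in monolayers and 7.31 CPM in crypts. Of 6 small-intestinal markers 4 had counts in monolayers (0 to 1.82 CPM summed) and 6 in crypts (18.4 to 80.5 CPM), with Sis and Fabp6 at 0 in monolayers. Of the leukocyte markers, Cd68 averaged 31.4 CPM in monolayers and 1.35 CPM in crypts, and Ptprc averaged 0.233 CPM in monolayers and 17 CPM in crypts. Of 8 fibroblast and muscle markers 7 had counts in monolayers (0.561 to 5.04 CPM, with Dcn at 0) and 7 in crypts (8.03 to 74.9 CPM, with Acta2 at 0). Of 5 endothelial markers 5 had counts in monolayers (0.538 to 4.02 CPM) and 4 in crypts (3.52 to 6.79 CPM, with Cdh5 at 0). The hepatocyte, small-intestinal and fibroblast sums were lower in monolayers, as were most tested members, and their part in the members' values was not tested.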

How the data were processed

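RNA from 9 colonic monolayers (3 libraries each at day 3, day 4 and day 5) and 3 libraries of colonic crypts was sequenced. The authors deposited whole-number counts per gene, not normalized, in 1 table per library with 23420 gene rows and 5 summary rows. The submitters' processing notes name CASAVA 1.9, TopHat2, HTSeq and the builds mm9 and mm10 without roles. The sources used here do not name the annotation, the strand setting or the versions. Reads of a gene and an overlapping antisense gene therefore cannot be told apart. The 5 summary rows stayed out of library sizes; reads in no gene were 38.7 to 49% of a library's total and reads without a unique alignment 14.2 to 19.2%.

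Counts were fitted over all 12 libraries with edgeR 4.0.16 in R 4.3.3 (filterByExpr with a minimum count of 10, TMM scaling, quasi-likelihood F test, Benjamini-Hochberg adjustment over 12863 genes, threshold 0.05). The fit was tested on simulated data. Alternatives were DESeq2 1.42.0, DESeq2 size factors, library totals, no filter, a replicate block, only the groups compared, and leaving out each library. Ratios of pooled CPM carry exact (Clopper-Pearson) 95% intervals. Intervals and floors cover counting error only.

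The members, lists and rule for named genes were chosen with earlier results of these data known. Every member is accounted for. All libraries are given for members called between monolayers and crypts with a log2 change of at least 2 in size and a mean of at least 2 CPM, and for 11 members fixed by name, among them Cyp2s1, Cyp4f16, Cyp24a1 and Cyp27b1. From each list up to 4 called genes with the largest change and a mean of at least 2 CPM are named, plus Por, Ahr, Nr1i2, Vdr and Cyp51. Copies were compared by shared 50-base stretches and coding identity in GENCODE M21 transcripts, in place of the planned protein identity; 90 of the 92 members matched, and Cyp2c44 and Cyp2d13 did not. Levels per kilobase use the longest protein-coding transcript. Promoters come from RefSeq on GRCm38.p6, where 71 members matched. The full leukocyte marker list is not reported here.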

Additional observations from a re-analysis of the deposited data

Results flagged for a closer look

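For 16 members, 32 differences between 2 days passed edgeR's test at an adjusted p under 0.05. Each is also the difference between the changes of those days against crypts, since the crypt libraries are shared. All values below are log2 changes, later day over earlier day.

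Between day 4 and day 3 the differences were 1.61 for Cyp26b1, 1.56 for Cyp2c55, 2.40 for Cyp2d12, 1.83 for Cyp2d26, 1.52 for Cyp2d34, 2.03 for Cyp2d9 and 1.99 for Cyp4f14. Those of Cyp26b1 and Cyp2d12 were no longer called without any 1 day 3 library, day 4 replicate 1 or 2, or day 5 replicate 2 or 3, at 1.24 to 1.89 and 1.63 to 2.56. That of Cyp2d9 was lost without day 3 replicate 1 or 3, day 4 replicate 1 or 2, or day 5 replicate 2, at 1.59 to 2.03, and it was 2.80 without day 3 replicate 2.

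Between day 5 and day 4 the only fall was that of Cyp1b1, at -1.70. Cyp2d10 and Cyp2d12 rose by 2.08 and 2.45, the second by 3.22 without day 4 replicate 1. Cyp2c55 rose by 1.80, Cyp4f40 by 1.73, Cyp4f14 by 1.65 and Cyp2c65 by 1.63. Cyp2d26 rose by 1.14, Cyp3a13 by 1.01, Cyp2d34 by 0.95 and Cyp2j6 by 0.56. The call of Cyp4f40 was lost with only the groups compared (1.75), that of Cyp3a13 without day 4 replicate 2 (0.87), and that of Cyp2j6 without day 4 replicate 2 or 3 or day 5 replicate 1 (0.47 to 0.58).

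Between day 5 and day 3 the differences were 4.85 for Cyp2d12, 3.64 for Cyp4f14, 3.60 for Cyp2d10, 3.36 for Cyp2c55, 3.24 for Cyp2d9, 3.04 for Cyp2u1, 2.98 for Cyp2d26, 2.81 for Cyp26b1 and 2.47 for Cyp2d34. They were 1.61 for Cyp2c65, 1.05 for Cyp3a13, 0.92 for Cyp2j6, 0.84 for Cyp4f13 and 0.44 for Cyp2s1.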

How the results depend on the processing

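The counts of members called between monolayers and crypts, 5 higher and 22 lower, were the same with DESeq2 size factors, library totals and DESeq2's own test. With no filter they were 6 and 27, with Cyp4f39 added to the higher side and Cyp24a1, Cyp2c40, Cyp2c66, Cyp2c67 and Cyp3a25, all below the filter otherwise, to the lower side. The number higher at day 5 than in crypts, 7, was 7 to 11 over the fits without 1 library, with 11 without crypts replicate 1. The number higher at day 4 than at day 3, 7, was 12 with no filter, 11 with only the groups compared, and 4 to 9 without 1 library. The number lower at day 5 than at day 3, 0, was 1 with library totals, with DESeq2, with no filter and with only the groups compared, and 0 to 1 without 1 library. Changes of sign came in 3 members that were not called between monolayers and crypts. With library totals, Cyp2d26 was -0.13 and Cyp4f13 was -0.017. Without 1 library, Cyp2d26 ranged over -0.15 to 0.22 and Cyp2u1 over -1.16 to 0.46. Of 1740 values compared in those fits, 53 calls were lost, over 17 comparisons of members. With only the groups compared Cyp1a1 was below the filter at day 5, and for all monolayers against crypts this setting gives no value. The causes were not tested. Members of few counts, such as Cyp2w1, Cyp2c69 and Cyp2j9, are those that depth limits most.

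No sign of pairing by replicate number was seen: none of 18 pairs with the same number had a correlation of deviations over 0.1 (-0.034 to 0.058). This cannot exclude shared mice or cultures, which the labels do not state. With the replicate block, 6 members were higher and 22 lower in monolayers than in crypts, Cyp4f39 being added at 2.49, Cyp2d9 was called higher at day 5 than in crypts (0.97), and 6 were higher at day 4 than at day 3.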

Other observations

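Enzymes that act after P450s on the same compounds were mostly lower in monolayers. Of 31 listed conjugation enzymes 28 were tested, and 5 rose, 19 fell and 4 were not called, with a median log2 change of -1.87 beside -0.03 over all genes. The shares over all genes were 30.7% higher and 32.8% lower. Sult1a1, a sulfotransferase of phenols, had 0.879 ± 0.638 CPM in monolayers and 373 ± 53.3 CPM in crypts, a log2 change of -9.13 ± 0.16 (edgeR adjusted p = 6.99e-18). Ugt2b5, a glucuronosyltransferase, had 0.00996 ± 0.0299 CPM in monolayers and 19.1 ± 6.06 CPM in crypts (edgeR adjusted p = 4.39e-10). Ugt2b5 passed the filter on low counts through crypts alone, which largely fixed its direction. Ugt2b35 and Sult1c2 fell by 5.37 and 5.05 on the log2 scale. Gsta1, a glutathione transferase, was among the 5 that rose.

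Of 11 listed epoxide hydrolases and other enzymes of lipid signalling 9 were tested, and 4 rose, 3 fell and 2 were not called. Over all genes, 30.7% were called higher and 32.8% lower. Ephx1, the microsomal epoxide hydrolase, had 136 ± 31.3 CPM in monolayers and 14.3 ± 1.17 CPM in crypts, a log2 change of 3.21 ± 0.12 (edgeR adjusted p = 4.74e-14). Ptgs2, the inducible cyclooxygenase, had 185 ± 60.3 CPM in monolayers and 0.0602 ± 0.104 CPM in crypts (edgeR adjusted p = 4.04e-16). Ptgs2 passed the filter on low counts through monolayers alone, which largely fixed its direction. Lta4h and Ephx2 rose by 0.62 and 0.61.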
